A study of Mus musculus with 2 samples.

Results

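The genes described here code for the core and regulatory proteins of pre-mRNA splicing: SR proteins (Srsf), heterogeneous nuclear ribonucleoproteins (Hnrnp), subunits of the SF3A and SF3B complexes (Sf3) and proteins of the small nuclear ribonucleoproteins (Snrp). They were chosen by name, as all protein-coding genes whose symbol begins with Srsf, Hnrnp, Sf3 or Snrp, together with Rbmx and its relative Rbmxl2. The choice used no measured value and gave 54 of the 43346 genes in the tables, 21474 of which are protein-coding: 20 Hnrnp genes, 12 Snrp genes, 11 Srsf genes, 9 Sf3 genes and the RBMX pair. PolyA mRNA was sequenced from whole testis of 1 adult male C57BL/6J mouse, an inbred strain, at 10 weeks of age. Both libraries came from this single biological replicate and are its technical replicates 1 and 2, the second of them made later, in 2015. RNA was extracted with the RNeasy Lipid Tissue Mini Kit, and the labelled size range was 350 to 450 bases. There was 1 group, no treatment and no second genotype, so every value describes this animal, and an SD or a library ratio describes technical spread only.

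Splicing removes introns in the spliceosome, where U1 recognises the 5′ splice site and U2 the branch site, before the U4/U6.U5 tri-snRNP joins. SR proteins bind exons and mostly promote their inclusion, whereas hnRNP proteins often oppose it, and many genes of both families control their own mRNA through exons that carry premature stop codons and send the transcript to nonsense-mediated decay. The testis splices many transcripts in forms found in few other tissues, and male germ cells silence the X chromosome in meiosis, when autosomal copies such as Rbmxl2 stand in for X-linked genes such as Rbmx.

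Replicate 1 holds 31995377 expected counts (estimated reads per gene) and replicate 2 holds 20675551. Their counts differed far beyond sampling noise, with a chi-square of 577 per degree of freedom over 18581 genes. Of the germ cell markers, 9 of 10 were detected, which means at least 1 TPM (a level scaled for transcript length and library depth) in each library, and their summed level was 9293 and 49740 TPM. Leydig cell markers were detected in 6 of 6 cases, Sertoli in 7 of 8, peritubular myoid in 3 of 5, endothelial in 3 of 5, macrophage in 3 of 6 and epididymis in 2 of 6. The summed levels of the somatic lists were 911 and 1319 TPM for Sertoli cells, 523 and 2193 TPM for Leydig cells, 17.6 and 95.7 TPM for myoid cells, 6.27 and 12.97 TPM for endothelium, 34.8 and 50.9 TPM for macrophages and 851 and 437 TPM for epididymis, in the order replicate 1 and replicate 2. Of the epididymis sum, Cst8 alone gave 797 and 418 TPM. Prm2 alone gave 45.4 and 15928 TPM of the germ cell sum, and Insl3 alone gave 83.2 and 1630 TPM of the Leydig sum. Of the germ cell markers, Prm1, Prm2, Tnp1, Tnp2, Ldhc and Zbtb16 had more TPM in replicate 2. Sycp3, Ddx4, Acrv1 and Stra8 had less. Of the defining markers, Amh was at 0 in replicate 1 and Lcn5 and Lcn8 were at 0 in both. The part of cell makeup in the levels below was not tested. In whole tissue, fewer cells of a type and less RNA per cell cannot be told apart.

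Splicing factor and hnRNP mRNAs were widely and strongly expressed. Of the 54 genes, 53 reached 1 TPM in both libraries, against 54.6% of all protein-coding genes, and Sf3b5 was the exception. Their summed level was 7246 TPM in replicate 1 and 5607 TPM in replicate 2, which is 0.725% and 0.561% of all TPM (0.643% ± 0.116, SD, n = 2 technical libraries). The median level of the detected genes was 75.6 and 79.4 TPM, while the median of all detected protein-coding genes was 13.8 and 20.8 TPM. The median percentile of the 54 among protein-coding genes was 89.8 and 88.6, and 27 and 22 of them stood at or above percentile 90.

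The Hnrnp genes contributed most of this, 4587 and 2911 TPM. The Srsf genes came next in replicate 1 and the Snrp genes in replicate 2, with 1664 and 1048 TPM and 663 and 1157 TPM. They were followed by the Sf3 genes with 312 and 450.0 TPM and the RBMX pair with 18.96 and 41.4 TPM. The order of levels was kept between libraries in some families and not in others. Spearman's rho of the levels was 0.69 over all 54 genes, 0.83 over the 20 Hnrnp genes, 0.75 over the 11 Srsf genes, 0.48 over the 9 Sf3 genes and 0.0070 over the 12 Snrp genes. These are correlations across genes that share both libraries, given as a description.

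**Figure D1:**
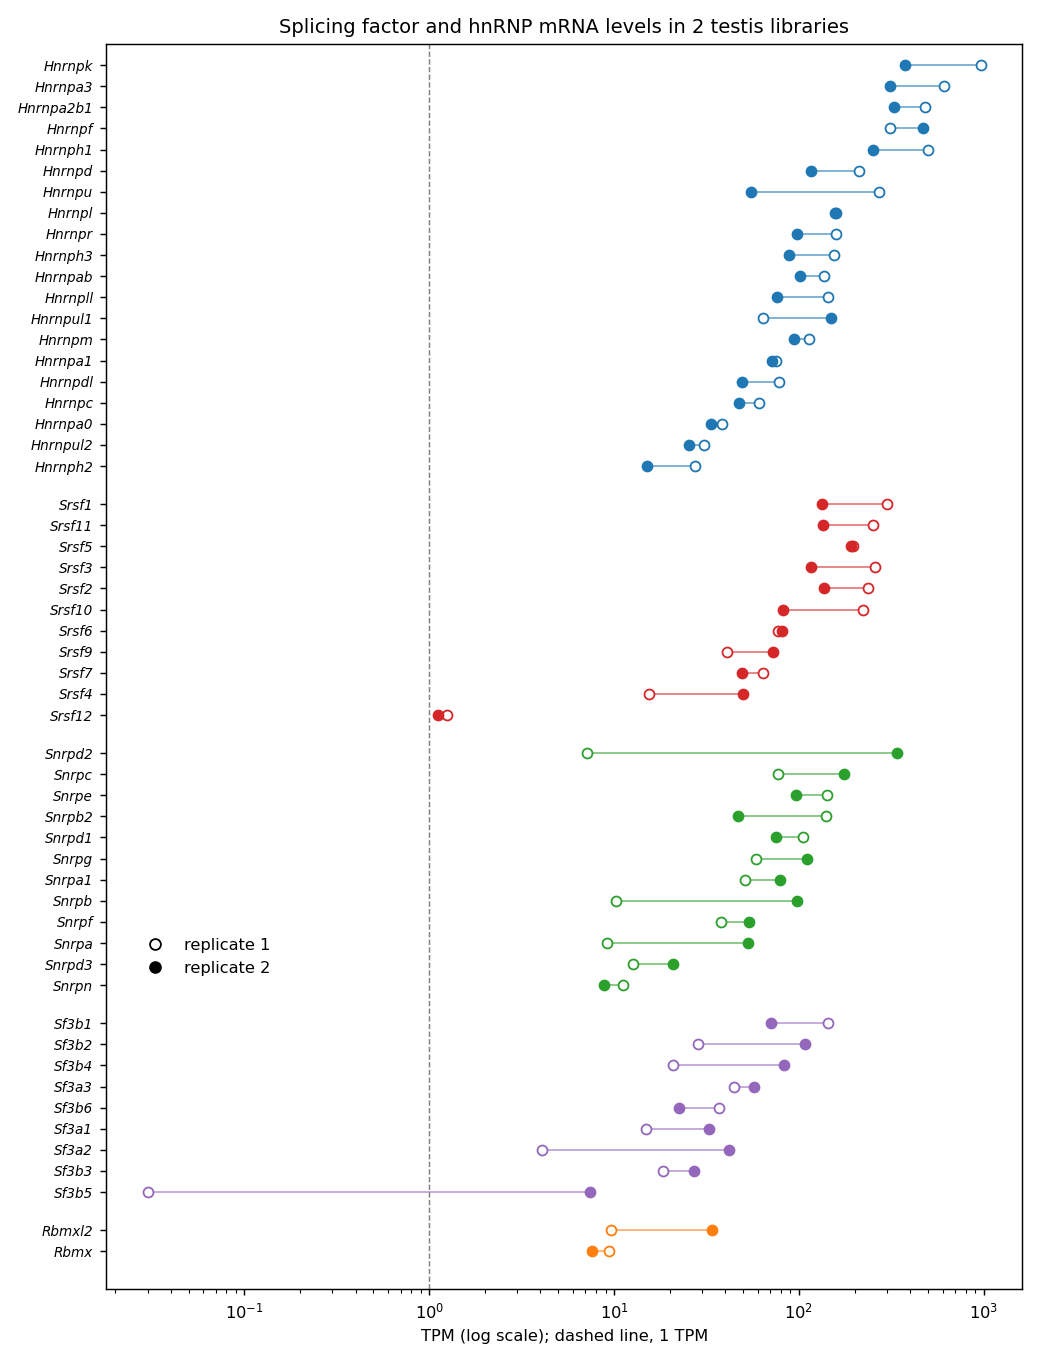
TPM of each of the 54 genes on a log axis, by family, with open circles for replicate 1, filled circles for replicate 2 and a dashed line at 1 TPM. Hnrnp and Srsf genes mostly keep their order while several Snrp and Sf3 genes move far, and Sf3b5 alone lies below the line, in replicate 1.

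Heterogeneous nuclear ribonucleoproteins coat nascent RNA. The highest of them was Hnrnpk (ENSMUSG00000021546.13, chromosome 13, 58391142 to 58403343 on mm10), whose protein binds C-rich RNA through KH domains, at 963 TPM in replicate 1 and 377 TPM in replicate 2. Hnrnpa3 reached 608 and 310 TPM, and its relative Hnrnpa2b1, named for its A2 and B1 isoforms, 481 and 327 TPM. Hnrnpf, a reader of G-rich tracts, reached 310 and 469 TPM and was the highest of all 54 in replicate 2. Its relative Hnrnph1 reached 501 and 251 TPM. The same 5 genes were the highest of the family in both libraries, although their order differed.

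A middle group of Hnrnp genes held the rest of the upper range. Hnrnpd (AUF1), which binds AU-rich elements, was at 212 and 116 TPM, and Hnrnpu, a scaffold-attachment protein, was at 272 and 55.3 TPM, the widest gap of the family as a ratio. Hnrnpl, which binds CA repeats, was at 158 and 157 TPM and its relative Hnrnpll at 144 and 76.3 TPM. Hnrnpr stood at 158 and 97.1 TPM, Hnrnph3 at 155 and 88.2 TPM and Hnrnpab at 136 and 102 TPM. Hnrnpa1, in many tissues a major hnRNP, was lower here than Hnrnpa3 and Hnrnpa2b1 in both libraries, at 75.6 and 71.7 TPM. The lowest of the family was the X-linked Hnrnph2 with 27.3 and 15.02 TPM, above the median of detected protein-coding genes in replicate 1 and below it in replicate 2. The other 19 Hnrnp genes lay above that median in both.

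SR proteins carry RNA recognition motifs and a domain rich in arginine and serine. Srsf1 (ENSMUSG00000018379.13, chromosome 11, 88047373 to 88053755), which can both select splice sites and leave the nucleus with mRNA, led the family in replicate 1 with 298 TPM and had 133 TPM in replicate 2. Srsf11 was at 253 and 135 TPM, Srsf3, the smallest SR protein, at 258 and 117 TPM and Srsf2 at 236 and 137 TPM. Srsf5 was at 197 and 191 TPM and led the family in replicate 2, although its counts after scaling for depth were 1.63-fold higher in replicate 1 (95% counting interval 1.57 to 1.70). Srsf10, which unlike its relatives can repress splicing when dephosphorylated, was at 223 and 81.6 TPM. Srsf6 was at 77.2 and 80.5 TPM, Srsf9 at 40.95 and 72.6 TPM, Srsf7 at 63.96 and 49.4 TPM and Srsf4 at 15.4 and 49.9 TPM. Srsf12 was barely detected, at 1.25 and 1.12 TPM from 68 and 31 counts.

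The Snrp genes code for the Sm ring, which binds the U1, U2, U4 and U5 snRNAs, and for proteins of single snRNPs. The ring holds its subunits in equal number, but their mRNAs ranged widely. In replicate 1 the 7 ring genes ran from Snrpd2 at 7.15 TPM to Snrpe at 143 TPM, a 19.9-fold range. In replicate 2 they ran from Snrpd3 at 20.8 TPM to Snrpd2 at 339 TPM, a 16.2-fold range, so that the lowest of the ring in one library was the highest in the other. Between these, Snrpd1 was at 105 and 75.3 TPM, Snrpg at 58.5 and 111 TPM, Snrpf at 37.98 and 53.97 TPM and Snrpb at 10.2 and 97.2 TPM. Snrpd2 (ENSMUSG00000040824.2, chromosome 7, 19149722 to 19153542) rested on 66 and 2012 counts.

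Among proteins of single snRNPs, Snrpc and Snrpa belong to U1 and Snrpa1 and Snrpb2 to U2. Snrpc was at 76.8 and 175 TPM and Snrpa at 9.19 and 53.3 TPM. Snrpa1 was at 50.9 and 79.4 TPM, and Snrpb2 (ENSMUSG00000008333.8, chromosome 2, 143063039 to 143072853) was at 141 and 46.9 TPM. Snrpn, the imprinted relative of Snrpb best known from neurons, was at 11.2 and 8.86 TPM. It overlaps Snurf and Gm38393 on the same strand, and whether reads were divided correctly between them was not tested.

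SF3A and SF3B help U2 bind the branch site. Sf3b1 (ENSMUSG00000025982.9, chromosome 1, 54985169 to 55027481), whose protein clamps the branch site helix, was highest in replicate 1 with 144 TPM and had 70.4 TPM in replicate 2. Sf3b2 was at 28.5 and 108 TPM and Sf3b4 at 20.9 and 83.5 TPM, so that the order of these 3 subunits differed between libraries. Sf3b6, which contacts the branch site, was at 37.2 and 22.5 TPM and Sf3b3 at 18.3 and 26.9 TPM. Of SF3A, Sf3a3 was highest in both libraries, at 44.7 and 57.1 TPM, with Sf3a1 at 14.9 and 32.6 TPM and Sf3a2 at 4.10 and 42.1 TPM.

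Sf3b5 (ENSMUSG00000078348.4, chromosome 10, 13005343 to 13009183), a small SF3B subunit coded by a single exon, was the 1 undetected gene. It had 2 counts (0.03 TPM) in replicate 1 and 370 counts (7.38 TPM) in replicate 2. After scaling for depth the ratio of replicate 2 to replicate 1 was 234, with a 95% counting interval of 64.3 to 1938.

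The RBMX pair codes for hnRNP G and its testis relative. Rbmxl2 (ENSMUSG00000073894.1, chromosome 7, 107209445 to 107210916, plus strand) is an intronless copy of 1 exon, and Rbmx (ENSMUSG00000031134.12, chromosome X, 57383530 to 57393036, minus strand) has 9 exons in Rbmx-203, the transcript with its longest coding sequence. The start of both coding sequences is shown because it lets the copy be compared with its parent. The coding sequences are identical at 65.9% of 1185 aligned columns, and the first 120 bases align without a gap. In the lines here, 5′ to 3′ from the start codon, capitals mark the 35 bases that differ.
Rbmxl2: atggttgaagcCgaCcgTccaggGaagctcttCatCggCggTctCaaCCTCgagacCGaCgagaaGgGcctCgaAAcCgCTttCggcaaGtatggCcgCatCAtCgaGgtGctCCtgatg
Rbmx: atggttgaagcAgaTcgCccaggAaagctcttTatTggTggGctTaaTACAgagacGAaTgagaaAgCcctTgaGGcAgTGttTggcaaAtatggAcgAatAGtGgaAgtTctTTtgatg
Of the 35 differences, 27 fall on the third base of a codon. At these 35 places Rbmxl2 has G or C in 28 and Rbmx in 10, and over the whole coding sequence the GC content is 73.3% for Rbmxl2 and 51.0% for Rbmx.

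Both genes were detected at modest levels. Rbmxl2 was at 9.62 TPM in replicate 1 and 33.7 TPM in replicate 2, from 268 and 597 counts, and Rbmx at 9.34 and 7.63 TPM, from 437 and 213 counts. Rbmxl2 over Rbmx was 1.03 in replicate 1 (95% counting interval 0.881 to 1.20) and 4.42 in replicate 2 (3.77 to 5.19). The copy was therefore higher than its parent in replicate 2, and in replicate 1 the interval included 1. The most abundant transcript has a GC content of 66.8% in Rbmxl2 and 45.7% in Rbmx. Library ratios went with GC content over the whole table, as described below, and its part in this change was not tested.

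Related genes were compared within each library for 14 pairs, by the ratio of their TPM with an interval from the counts behind it. The second gene of the pair was higher in both libraries in 10 pairs, the first gene in 0, the libraries gave opposite directions in 2, and an interval included 1 in the other 2. In 1 of the 10 pairs the intervals of both libraries overlapped. Hnrnph1 exceeded the X-linked Hnrnph2 by 18.3-fold (17.3 to 19.4) and 16.7-fold (15.2 to 18.4), although the coding sequences are 81.3% identical.

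In the other 9 pairs the direction held and the intervals did not overlap. Hnrnpd exceeded Hnrnpdl by 2.71-fold (2.60 to 2.83) and 2.35-fold (2.18 to 2.53). Srsf10 exceeded Srsf12 by 179-fold (141 to 230.1) and 72.9-fold (51.2 to 108). Srsf1 exceeded Srsf9 by 7.28-fold and 1.83-fold, and Srsf3 exceeded Srsf7 by 4.04-fold and 2.36-fold. Srsf6 exceeded Srsf4 by 5.03-fold and 1.62-fold. Hnrnpf exceeded Hnrnph3 by 2.00-fold and 5.32-fold, and Hnrnpul1 exceeded Hnrnpul2 by 2.09-fold and 5.84-fold. Hnrnpl exceeded Hnrnpll by 1.10-fold and 2.05-fold, and Hnrnpd exceeded Hnrnpab by 1.56-fold and 1.14-fold. On counts without length scaling, the mean log2 ratio of both libraries was toward Hnrnpll and Hnrnpab, at 0.64 and 0.38. The order did not turn in both libraries for Hnrnpll, which had 2892 counts against 3530 for Hnrnpl in replicate 2. Hnrnpab had 4709 counts against 4661 for Hnrnpd in replicate 1.

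The pairs without a common direction were those of Snrpb2, Hnrnpa3, Snrpn and Rbmxl2. Snrpb2 over Snrpa was 15.3 in replicate 1 (12.5 to 18.9) and 0.880 in replicate 2 (0.794 to 0.974). Hnrnpa3 over Hnrnpa2b1 was 1.26 and 0.947. Snrpn over Snrpb was 1.09 (0.924 to 1.29) and 0.0912 (0.0787 to 0.106), so Snrpb was the higher gene in replicate 2, by 10.97-fold. The GC content of the most abundant transcript was 39.7% for Snrpb2 and 57.4% for Snrpa, and 44.8% for Snrpn and 57.7% for Snrpb. For Hnrnpa3 and Hnrnpa2b1 it was 44.8% and 43.3%. The part of GC content in these changes was not tested.

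**Figure D2:**
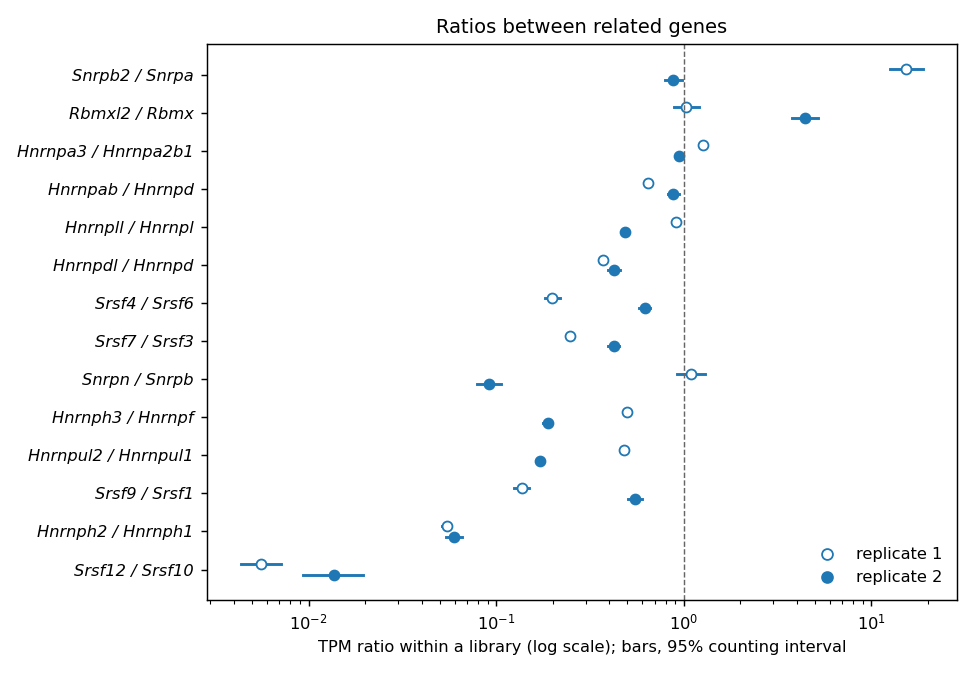
TPM ratio of the first gene over the second for 14 pairs, on a log axis, with open circles for replicate 1, filled circles for replicate 2, bars for the 95% counting interval and a dashed line at 1. In 10 pairs both circles lie left of the line, and Snrpb2 over Snrpa moves from 15.3 to 0.880.

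Library counts were compared gene by gene with an exact two-sided binomial test after TMM scaling for depth. Adjustment by Benjamini-Hochberg ran over all 18581 genes that averaged at least 10 counts, and calls needed both an adjusted p under 0.05 and at least a 2-fold ratio. All 54 genes were tested. In replicate 2, 10 of the 54 were higher, where 32.1% of all tested genes were, and in replicate 1, 16 were higher, where 23.7% of all tested genes were. The median log2 ratio of replicate 2 over replicate 1 was -0.66 for the 54 and -0.0042 for all tested genes. With plain library totals, which moved all ratios up by 0.29, the split was 11 higher in replicate 2 and 6 higher in replicate 1, where 36.1% and 15.3% of all tested genes were.

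Of the 20 Hnrnp genes, 9 were higher in replicate 1, 1 in replicate 2 and 10 were not called, and of the 11 Srsf genes 4, 1 and 6. With plain totals 2 Hnrnp and 2 Srsf genes were called higher in replicate 1, again against 1 each. Against genes of similar GC content 3 Hnrnp genes were higher in replicate 1 and 2 in replicate 2, and of the Srsf genes 2 and 0. The Sf3 genes gave 4 higher in replicate 2 and 2 in replicate 1, and the Snrp genes 3 and 1. With plain totals each of these 2 families gave 4 and 1. Against genes of similar GC content the Sf3 genes gave 1 and 0 and the Snrp genes 3 and 0. Of all tested genes, 32.1% were higher in replicate 2 and 23.7% in replicate 1. With plain totals these shares were 36.1% and 15.3%, and against genes of similar GC content 11.1% and 8.93%. The largest ratios toward replicate 2 after Sf3b5 were those of Snrpd2 (38.5, 95% counting interval 30.1 to 50.01), Sf3a2 (18.2, 13.9 to 24.2), Snrpa (10.7, 8.67 to 13.3) and Snrpb (7.53, 6.52 to 8.73). The largest toward replicate 1 were smaller, namely Hnrnpu (3.61, 3.49 to 3.73), Srsf10 (3.41, 3.26 to 3.57), Srsf1 (2.94, 2.83 to 3.05), Snrpb2 (2.66, 2.44 to 2.90) and Hnrnpd (2.66, 2.51 to 2.83).

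The ratio went with the GC content of a gene's most abundant transcript. The 10 genes higher in replicate 2 had a median GC content of 56.5%, the 16 higher in replicate 1 one of 42.5% and the 28 not called one of 45.6%. Of the 27 genes with the lower GC content, 0 were higher in replicate 2 and 14 in replicate 1, against 10 and 2 of the 27 with the higher content. Spearman's rho of GC content and log2 ratio was 0.73 over the 54 genes and 0.89 over all tested genes with a GC value, as a description across genes. The counts of the 54 genes by direction therefore stood beside a gradient shared by the whole table, and its source was not tested.

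Set against genes of similar GC content, 42 of the 54 were not called. 6 were higher in replicate 2 and 6 in replicate 1, where 11.1% and 8.93% of all tested genes were. The 6 higher in replicate 2 were Sf3b5, Snrpd2, Snrpf, Hnrnpl, Snrpg and Hnrnpf, with log2 differences from their GC class between 1.18 for Hnrnpf and 8.34 for Sf3b5. The 6 higher in replicate 1 were Rbmxl2 (-3.73), Hnrnpab (-3.08), Hnrnpa0 (-2.69), Hnrnpd (-1.68), Srsf4 (-1.60) and Srsf2 (-1.22). Rbmxl2 and Srsf4 thus turned from higher in replicate 2 to lower than their GC class, while Snrpa, Snrpb and Sf3a2 were within a ratio of 2 of it. The GC content came from a transcript of the same length as in the deposited tables for 10 of these 12, the exceptions being Snrpd2 and Snrpg. Each class rests on 1 transcript, the highest by mean TPM. Hnrnpab was classed by Hnrnpab-203 (55.6% GC), although Hnrnpab-201 (49.9%) had more counts, 2391 against 2309 and 1342 against 966. Hnrnpl was classed by the retained intron Hnrnpl-210 (45.5% GC), with 2.49% of its level in replicate 2, where Hnrnpl-202 (50.4%) led. How the calls change with another transcript was not tested.

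**Figure D3:**
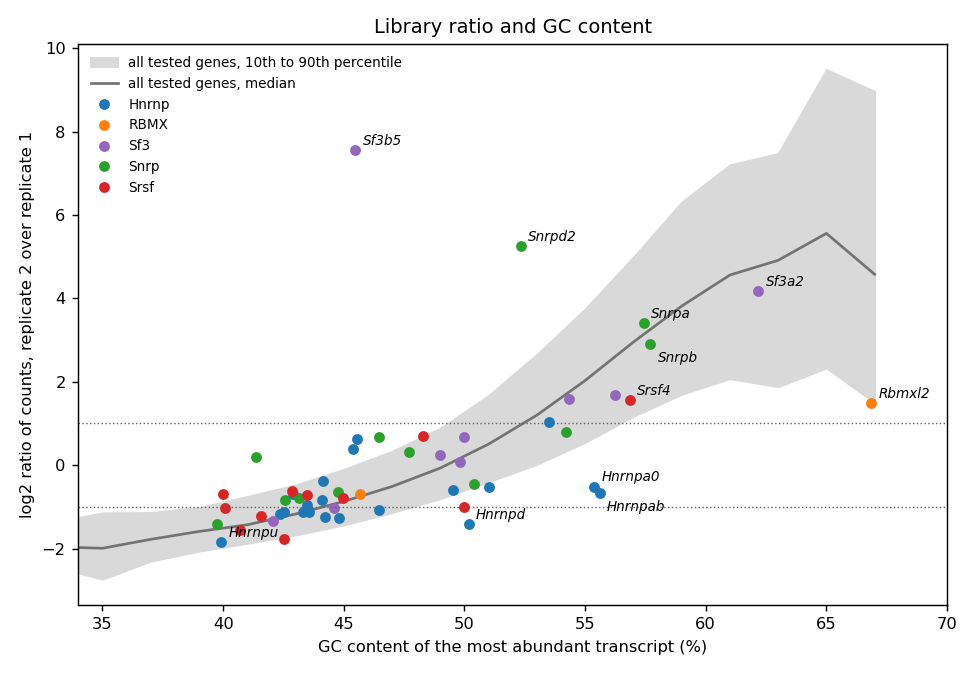
Log2 ratio of counts, replicate 2 over replicate 1, against the GC content of the most abundant transcript in percent, with 1 point per gene coloured by family and dotted lines at a ratio of 2. The grey line and band are the median and the 10th to 90th percentile of all tested genes in GC bins, and most points follow it, with Sf3b5 and Snrpd2 far above.

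In the transcript tables the level of a gene is divided among its transcripts. Of the 54 genes, 12, Sf3b5 among them, had 1 annotated transcript, and the other 42 were all detected. The most abundant transcript was the same in both libraries for 26 of the 42, where 65.8% of all 8462 detected protein-coding genes with more than 1 transcript had the same one. It held a median of 64.3% and 59.9% of the level, against 76.5% and 71.5% over all such genes.

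The 16 genes with different leading transcripts included several of the most abundant. Hnrnpk was led by Hnrnpk-208 in replicate 1 (21.7%) and Hnrnpk-201 in replicate 2 (32.6%), both protein-coding. Hnrnpa2b1 was led by Hnrnpa2b1-203 (44.4%) and Hnrnpa2b1-201 (38.1%). Hnrnpd was led by Hnrnpd-203 (41.3%) and Hnrnpd-210 (40.1%), also protein-coding. For Hnrnph1 and Hnrnpu the leading transcript by TPM in replicate 1 was annotated as noncoding, namely Hnrnph1-212 with 33.5% and Hnrnpu-203 with 53.6%. In replicate 2 protein-coding transcripts led them, Hnrnph1-201 with 37.7% and Hnrnpu-201 with 72.2%. The same held for Srsf11, Srsf5 and Srsf3, led by the retained introns Srsf11-213 (24.9%), Srsf5-212 (33.8%) and Srsf3-205 (68.7%) in replicate 1 and by the coding Srsf11-202 (26.4%), Srsf5-201 (31.1%) and Srsf3-202 (37.4%) in replicate 2. By estimated counts in replicate 1, Hnrnpu-201 led with 16741 against 2154 for Hnrnpu-203, and Hnrnph1-201 with 5960 against 2292 for Hnrnph1-212. Srsf3-202 led with 2910 against 2782 for Srsf3-205. The retained introns Srsf11-213 and Srsf5-212 led there by counts too. Hnrnpk-201, Hnrnpa2b1-203 and Hnrnpd-203 led their genes by counts in both libraries, so their differences held for TPM only. In replicate 1, for example, Hnrnpk-201 had 7907 counts against 3225 for Hnrnpk-208. By counts 37 genes had the same leading transcript in both libraries, in place of 26 by TPM. In 2 genes the leading transcript of a library was shorter than the labelled size range, Hnrnpr-209 with 292 bases and Snrpa1-203 with 262 bases. The effect on their TPM was not tested.

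Transcripts annotated as targets of nonsense-mediated decay were counted next. Their median share was 0 in both libraries, in the 42 genes as in all such genes. They held 10% or more of the level in both libraries in 8 of the 42 genes, where 6.37% of all such genes met this limit. Of these 42, 20 (47.6%) have at least 1 transcript of this type annotated, against 26.6% of all, and among genes with one annotated the limit was met by 8 of 20 and by 539 of 2252. The 8 genes were Rbmx, Srsf4, Srsf2, Hnrnpll, Snrpa1, Hnrnpd, Srsf1 and Srsf6. By expected counts instead of TPM shares the number was 5.

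In Rbmx the decay-type transcript Rbmx-205 led in both libraries, with 64.1% and 69.1% of the level, from 253 and 141 estimated counts. Its stop codon ends at base 5 of an 89 base exon (chromosome X, 57385133 to 57385221) that Rbmx-201, its highest coding transcript by mean TPM, lacks. The decay-type share was 45.4% and 27.8% in Srsf4, 30.6% and 24.5% in Srsf2, 22.9% and 23.7% in Hnrnpll, 20.8% and 21.03% in Snrpa1, 15.9% and 21.4% in Hnrnpd and 19.8% and 13.8% in Srsf1. Hnrnpll and Snrpa1 differed least between the libraries. In Hnrnpd different transcripts made up the share, Hnrnpd-208 with 14.8% and 0.58%, Hnrnpd-204 with 0.76% and 10.4% and Hnrnpd-209 with 0 and 9.81%.

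Srsf6 and Srsf3 differed most. Srsf6-201 held 10.2% of the level in replicate 1 and 46.0% in replicate 2, where it was the leading transcript. Srsf3-201 held 4.32% and 26.7%, so Srsf3 missed the limit in replicate 1. Each of these transcripts, like Hnrnpll-203, includes an exon absent from the coding transcript, and the stop codon lies inside it. The coding part of these exons is shown because the stop is what gives the transcripts their type. Each line runs 5′ to 3′ on the strand of the gene from the first base of the exon, with the in-frame stop codon in capitals.
Srsf6-201: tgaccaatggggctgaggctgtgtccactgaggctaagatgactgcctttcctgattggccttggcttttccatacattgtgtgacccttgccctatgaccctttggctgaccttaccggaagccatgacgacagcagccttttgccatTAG
Srsf3-201: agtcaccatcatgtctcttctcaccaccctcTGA
Hnrnpll-203: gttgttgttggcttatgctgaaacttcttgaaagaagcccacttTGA
On mm10 these lie at chr2:162932815-162932966 (plus strand), chr17:29039454-29039487 (plus strand) and chr17:80044976-80045022 (minus strand). The reading frame runs for 152, 34 and 47 bases of exons that are 268, 456 and 83 bases long. Srsf3-201 has 1919 bases in the deposited tables and 2594 in the annotation used for its exons.

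Transcripts of the retained intron and processed types held 10% or more of the level in both libraries in 16 of the 42 genes, where 25.0% of all such genes met this limit. The median share was 6.65% and 4.08% in the 42 and 2.28% and 2.35% in all. The share was highest among the Srsf genes, with 8 of 10 past the limit and a median of 32.4% and 37.1%, against 5 of 18 Hnrnp genes, 2 of 8 Snrp genes and 1 of 5 Sf3 genes. No test was made of the difference between families.

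By the mean of both libraries, the highest shares were those of Srsf11 (83.7% and 53.1%), Snrpb2 (76.9% and 56.2%), Hnrnph1 (69.8% and 49.6%), Srsf3 (73.9% and 35.9%) and Hnrnpl (80.9% and 28.6%). All 5 were higher in replicate 1, and in replicate 2 alone Srsf9 had the highest share. Over the 42 genes the share was higher in replicate 1 in 24 and in replicate 2 in 6, whereas over all 8462 genes it was higher in 3385 and 2272. In Snrpb2 a single retained-intron transcript of 594 bases, Snrpb2-203, held 73.8% and 52.1% of the TPM, from 916 and 139 estimated counts. The coding Snrpb2-201 of 2061 bases had 1321 and 530 counts, so that by counts it was the more abundant of both forms in each library. Snrpa went from 60.8% in replicate 1, all in Snrpa-205 of 509 bases from 39 estimated counts, to 0 in replicate 2. Srsf9 and Snrpa1 went the other way, from 26.2% to 60.9% and from 13.3% to 48.5%. In Snrpa1 the 262 base Snrpa1-203 held 7.61% and 46.9% of the level, from only 7 and 46 estimated counts.

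**Figure D4:**
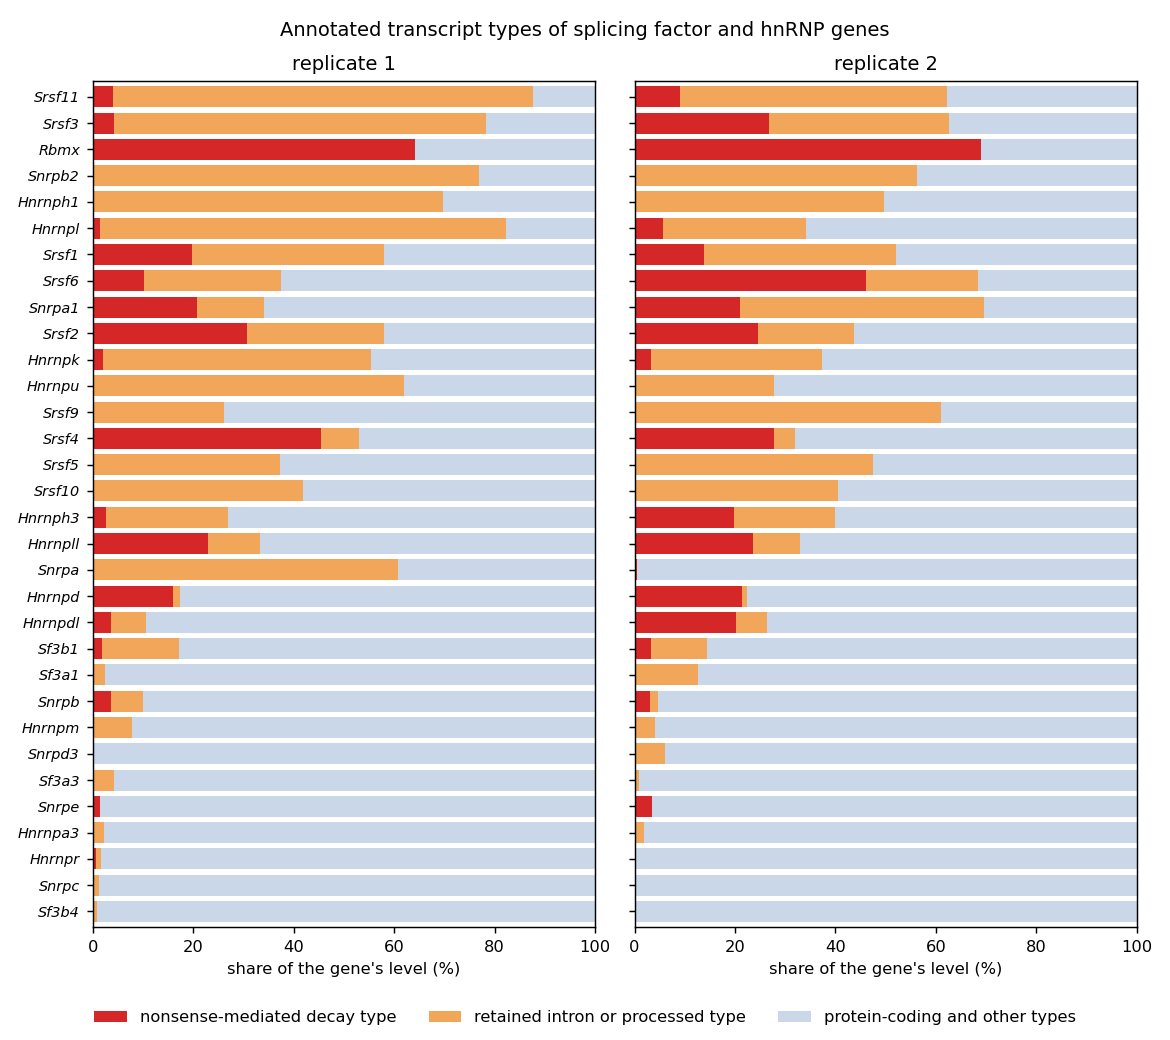
Share of each gene's level, in percent, in transcripts of the nonsense-mediated decay type (red), retained intron or processed type (orange) and all other types (blue), for the genes with any level in the first 2 classes and more than 1 transcript. Replicate 1 is on the left and replicate 2 on the right. Srsf genes crowd the upper part, Rbmx is red to 64.1% and 69.1%, and the red part of Srsf6 grows from 10.2% to 46.0%.

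Genes that work beside these in splicing were counted from lists of 168 genes found in the tables, of which 150 were detected. Of the 164 with enough counts, 52 were higher in replicate 2 and 42 in replicate 1, where 32.1% and 23.7% of all tested genes were. Against genes of similar GC content the numbers were 15 and 12, where 11.1% and 8.93% of all tested genes were called. The pooled numbers thus lay near the background. Numbers per list varied, and no test was made of the difference between lists. The tri-snRNP list gave 5 and 0 of 23, and the relatives of hnRNP proteins 0 and 5 of 21. The U1 and minor snRNP list gave 3 and 2, U2 and branch site 2 and 0, and NTC and catalytic step 1 and 1. SR protein kinases and relatives gave 2 and 1, tissue-regulated regulators 1 and 3 and Sm assembly 1 and 0. Matr3, a relative of hnRNP proteins, and Scaf1, of the SR protein kinase list, had no GC value. They were set against the median of all tested genes instead. Matr3 is among the 5 called higher in replicate 1 and Scaf1 among the 2 called higher in replicate 2. The numbers per list below are without the GC comparison. The genes named here are among the 3 highest of their list by mean TPM, and their order differed between libraries in some lists. The U1 and minor snRNP list gave 5 and 8 of 16, with Luc7l2 at 192 and 91.3 TPM and Zcrb1 at 179 and 92.3 TPM. The U2 and branch site list gave 6 and 3 of 12, with the branch point binding protein Sf1 at 162 and 216 TPM, the helicase Dhx15 at 158 and 67.6 TPM and Rbm17 at 103 and 65.6 TPM. The tri-snRNP list gave 10 and 1 of 23, with Lsm2 (89.4 and 234 TPM), Snu13 (142 and 125 TPM) and Snrnp27 (98.98 and 63.9 TPM).

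Among later-acting and regulatory factors, the NTC and catalytic step list gave 8 and 2 of 24, with Bud31 at 200.04 and 123 TPM, Bcas2 at 199 and 99.7 TPM and Cwc15 at 120.4 and 99.3 TPM. SR protein kinases and relatives gave 4 and 6 of 19. Srpk1, a kinase that phosphorylates SR proteins, was at 384 and 315 TPM, above every Srsf gene in both libraries, with Son at 225 and 140 TPM and Acin1 at 168 and 136 TPM. The list named tissue-regulated regulators gave 9 and 15 of 37. Its highest genes were Ranbp9 (435 and 210 TPM), Rbm39 (228 and 98.7 TPM) and Rbm25 (206 and 94.9 TPM). Whether these are tissue-regulated was not tested. Of its 39 genes 29 were detected, Rbfox2 and Esrp1 among them, while Rbfox1, Rbfox3, Nova1, Nova2 and Esrp2 were not. Relatives of hnRNP proteins gave 8 and 5 of 21, with Matr3 at 703 and 251 TPM, Ewsr1 at 279 and 361 TPM and Pcbp2 at 292 and 272 TPM. Factors of Sm assembly gave 2 and 2 of 12, with the helicase Ddx20 of the SMN complex at 342 and 191 TPM, Strap at 214 and 134 TPM and Clns1a at 43.98 and 41.1 TPM.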

How the data were processed

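For each library the authors deposited a gene and a transcript table, quantified separately on mm10 with annotation M4, per the deposited notes. Which aligner and quantifier they ran is not given in the sources used here. In these tables the authors deposited expected counts (estimated reads), TPM, FPKM, posterior means and SDs, and, as a percent, how a gene's level is divided among its transcripts. Names, transcript types, exons, GC content and sequences came from GENCODE M21 on the same assembly, matched by identifier for 42462 of 43346 genes and 280 of 281 transcripts of the 54 genes. Of the 281, 251 have the same length in both releases. Of the 54 genes, 28 overlap another gene, and whether counting used strand is not given in the sources used here. Entries that are no genes held 5 and 0 counts.

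Detected means at least 1 TPM in each library. For the test, expected counts were rounded and scaled by TMM (edgeR 4.0.16; factors 0.904 and 1.11), and ratio intervals are exact (Clopper-Pearson, 95%). For the GC comparison, each gene's expected ratio was the median of its bin among 100 bins. A GC value was available for 18398 of the 18581 tested genes, and for all of the 54. Tested genes without one were given the median of all tested genes and so were not matched for GC content. Intervals cover counting error only, and the test compares the reads of 2 libraries. Coding sequences were aligned globally (Biopython 1.88). Python 3.11.15, scipy 1.17.1 and R 4.3.3 were used.

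The genes, lists, pairs and tests were chosen with earlier results of these data known. Genes were named by rule: per family the 5 of highest mean TPM, all pair genes, the undetected gene, the 5 largest ratios each way, the 8 most abundant with differing leading transcripts, the 8 and 5 largest shares in decay and intron types, and 3 per list, of which 1 is not reported here. Protein sequence features were not analysed here. The limit of 10% for transcript types was chosen after seeing the data. Alternatives covered detection limits, FPKM, posterior means, scalings (plain totals, DESeq2 1.42.0 size factors), filters, ratio limits and edgeR's exact test at a coefficient of variation set to 0.1.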

Additional observations from a re-analysis of the deposited data

How the results depend on the processing

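Each count rests on 2 technical libraries of 1 animal, and splits between transcripts are estimates. The number of genes higher in replicate 1 was 16 (23.7% of all tested genes); it was 6 with plain library totals (15.3%), 6 against genes of similar GC content (8.93%), 30 at a ratio of 1.5 (33.7%) and 2 at a ratio of 3 (8.56%). The number higher in replicate 2 was 10, and 6 against genes of similar GC content (11.1%). Across these alternatives the causes were not tested. By share of expected counts, 5 genes in place of 8 had 10% or more in decay-type transcripts, and 5 did at a limit of 20%; the median share in retained intron and processed types was 3.08% in place of 5.36%. The count of genes at 10% and its alternatives were added after seeing the data. With 1 library alone, 1 pair had its first gene higher without replicate 1 and 2 without replicate 2. On counts without length scaling, the mean log2 ratio of both libraries changed sign for some pairs. It became -0.48 for Hnrnpa3 over Hnrnpa2b1, 0.64 for Hnrnpll over Hnrnpl and 0.38 for Hnrnpab over Hnrnpd. With either replicate left out, it ranged from -3.46 to 0.12 for Snrpn over Snrpb, from -0.18 to 3.94 for Snrpb2 over Snrpa and from -0.079 to 0.34 for Hnrnpa3 over Hnrnpa2b1, so that its sign changed in these 3 pairs. The number detected was 46 to 53 at limits of 0.5 to 10 TPM, the summed level was 0.615% to 0.728% of the total under other units and totals, and the number with the same leading transcript, 26 by TPM, was 27 to 37 under its alternatives. FPKM is proportional to TPM within a library, and the median share in decay-type transcripts was 0 under every alternative, so these say nothing about stability.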
